A study of Mus musculus with 16 samples.

Results

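The Zfp genes of the mouse encode proteins with zinc fingers, and 290 of the 57010 genes counted in microglia of the olfactory bulb are described here. They are the genes whose symbol is Zfp followed by digits only, without Zfp36, and that had at least 15 counts in each of the 16 libraries. Of 379 such symbols at any count, 89 fell below that limit. The members were chosen by their name and by their lowest count over the libraries, and Zfp248 was named as a member with its genotype difference already known, so the genotype levels of Zfp248 are a description with no test, and counts of members with a difference refer to the other 289. Microglia were isolated with CD11b beads from olfactory bulbs of mice aged 2 months, and RNA was sequenced in 4 libraries each from WT females, WT males, APP-NL-G-F females and APP-NL-G-F males. WT mice were C57BL/6J. The APP-NL-G-F mice carried a knock-in at App with a humanised amyloid beta sequence and 3 familial changes, the Swedish one (NL), the Arctic one (G) and the Iberian one (F), and every cell that expresses App carries them. In plots and library names the knock-in is written KI. The labels do not tie a library to 1 animal, so p-values measure the spread between libraries, which may in part be technical.

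The classic zinc finger of these proteins is a short fold in which a pair of cysteines and a pair of histidines hold a zinc ion, and arrays of such fingers can bind DNA at chosen sequences. Many mouse Zfp genes also encode a KRAB box at the start of the protein. A KRAB box recruits TRIM28 (also called KAP1), which brings the histone methyltransferase SETDB1, HP1 proteins and the NuRD complex, and the target, often a retrovirus or other repeat, is silenced. Zfp genes without a KRAB box have varied roles, from activators and corepressors of transcription to factors that bind RNA, ribosomes or ubiquitin. Zfp genes lie in clusters that grew by duplication, so near-identical copies can share reads.

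The sequences below each encode the first zinc finger that the search pattern found in 1 of the 5 genes that the genotype results turn on. Later fingers of the same proteins are not shown. Zfp248 is shown as the member with the widest difference, and Zfp974, Zfp507, Zfp622 and Zfp593 as the members called over both sexes. The codons of the zinc-binding cysteines and histidines are in capitals, 5′ to 3′ on the coding strand, read from GRCm39. The finger of Zfp248 lies at chr6:118406391-118406453 (minus strand, exon 6 of 6), that of Zfp974 at chr7:27611361-27611423 (minus strand, exon 4 of 4) and that of Zfp507 at chr7:35494610-35494672 (minus strand, exon 3 of 7). The finger of Zfp622 lies at chr15:25984651-25984719 (plus strand, exon 1 of 6). That of Zfp593 is split over 2 exons between chr4:133972344-133972628 (minus strand), and the intron is left out.
Zfp248: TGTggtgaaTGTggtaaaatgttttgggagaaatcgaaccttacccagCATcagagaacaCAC
Zfp974: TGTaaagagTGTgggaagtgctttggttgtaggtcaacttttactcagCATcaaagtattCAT
Zfp507: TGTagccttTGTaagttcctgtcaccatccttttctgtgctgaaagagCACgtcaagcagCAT
Zfp622: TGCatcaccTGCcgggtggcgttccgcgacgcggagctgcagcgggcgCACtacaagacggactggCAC
Zfp593: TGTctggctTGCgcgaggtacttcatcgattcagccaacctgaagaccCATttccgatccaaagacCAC
The fingers shown for Zfp248, Zfp974 and Zfp507 are 63 bases long, and those shown for Zfp622 and Zfp593 are 69 bases, with more residues between the histidines. The KRAB box of Zfp248, which places it in the class that recruits TRIM28, is encoded by 117 bases of exon 4 of 6 at chr6:118410270-118410386 on the minus strand and has no capitals.
Zfp248 KRAB box: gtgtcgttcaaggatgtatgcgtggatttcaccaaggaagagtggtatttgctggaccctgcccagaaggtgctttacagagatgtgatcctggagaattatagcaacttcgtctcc

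Of the 290 members, 289 were matched by symbol to the GENCODE vM39 annotation of GRCm39 (Zfp651 was not), and 288 of these were protein-coding. A KRAB box was found in 172 and not in 117. Members with a KRAB box had a median of 12 fingers and those without had 8, with a maximum of 36. For 5 members (Zfp993, Zfp703, Zfp330, Zfp365 and Zfp839) the search pattern found no finger. Chromosome 7 held 71 members, chromosome 17 held 34, chromosome 13 held 25 and chromosome 8 held 23. In 20 members over 20% of the 75-base stretches of the transcript also occur in another gene, led by Zfp993 at 77.6% and Zfp97 at 76.4%, and counts of these members are uncertain. Among Zfp248 and the genes called over both sexes, Zfp974 shares 10.04% and Zfp248 0.04% of its stretches, while Zfp507, Zfp622 and Zfp593 share 0%.

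Library totals ran from 9052932 to 18117286 counts, of which the members held 0.638% to 0.725%. A count of 3, the limit that a count of 0 allows, equals 0.169 to 0.347 CPM. CPM are counts scaled to a common depth by each library's total and its TMM factor (trimmed mean of M-values). Microglia markers were high in every library: the 10 markers summed to 20055 to 23908 CPM in WT and 20027 to 23336 in KI libraries, with none called. The 15 neuron markers summed to 665 to 1081 CPM in WT (median 848) and 831 to 1561 in KI libraries (median 1174). Of these, 12 had a fold change above 0 and 1, Meg3, was called higher. Of 7 oligodendrocyte markers all 7 were above 0 and 1 was called, with a summed level of 232 to 431 CPM in WT and 284 to 418 in KI. Neuroblast markers summed to 53.5 to 71.5 CPM in WT and 61.7 to 94.2 in KI, with 1 of 6 called. No marker was called for astrocytes, olfactory ensheathing cells, endothelial cells, pericytes and fibroblasts, border macrophages, or monocytes and neutrophils. At a false discovery rate (FDR) below 0.1 with no fold limit, 14.8% of all tested genes passed. Of the neuron markers, Meg3, Snap25, Syt1, Map2, Gad1 and Gad2 then passed, all higher in KI. Dcx, Sox11 and Dlx1 of the neuroblast list and Mbp, Mog and Cnp of the oligodendrocyte list were higher too, and the astrocyte marker Gfap was lower. No marker of the 10 lists was at 0 in all libraries. The part of RNA from other cells in the results below was not tested. In bulk RNA, fewer cells of a type and less RNA per cell cannot be told apart.

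Levels between genes were compared as CPM per kilobase of the canonical transcript. The median member was at 2.74 CPM per kb, with an interquartile range of 1.61 to 5.78. Members without a KRAB box had a median of 4.96 and members with one 2.11 CPM per kb. Zfp652, a corepressor partner of CBFA2T proteins, was highest at 43.0 CPM per kb, followed by Zfp691 at 36.2, Zfp706 at 33.7 and Zfp710 at 31.2. Zfp658 is left out of this order, since its symbol stands on chromosome 1 in GENCODE vM39 and on chromosome 7 in the RefSeq gene table (GRCm38.p6), and its length and KRAB box are doubtful. Zfp521, a cofactor of early B cell factors, was lowest at 0.387 CPM per kb. By CPM alone the 5 highest were Zfp652 (443), Zfp106 (272), Zfp710 (230), Zfp638 (178) and Zfp706 (149), and the 5 lowest were Zfp689 (2.36), Zfp418 (2.45), Zfp13 (2.46), Zfp970 (2.53) and Zfp72 (2.57). Zfp652 lay between 408 and 488 CPM in WT and between 396 and 485 in KI libraries, so its ranges nearly coincide.

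The median SD of log2 CPM within the 4 groups was 0.163 for the 289 members and 0.154 for the 12557 genes with the same count limit. Zfp236 was the steadiest at 0.0528, and Zfp618 the most variable at 0.575, from 2.25 to 7.82 CPM in WT and 2.77 to 8.44 in KI libraries. The summed level of the 289 members was 6691 to 6980 CPM in WT (median 6923) and 6589 to 7190 in KI (median 6926). Genes just inside the limit were Zfp13 with a lowest count of 15, and Zfp418, Zfp689 and Zfp72 with 16, and the lowest count of Zfp248 was 18. Just outside were Zfp551 and Zfp808 with 14, Zfp428 with 13, and Zfp78, Zfp566 and Zfp948 with 12.

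Zfp248 (ENSMUSG00000030145), a KRAB gene with 7 fingers and 576 residues, was at 2.81, 2.08, 3.36 and 2.73 CPM in the 4 WT female libraries and at 3.25, 2.98, 3.81 and 3.56 CPM in the 4 WT male libraries. In KI females it was at 8.03, 9.78, 11.6 and 12.5 CPM, and in KI males at 12.5, 14.8, 5.88 and 12.02 CPM. Every KI library lay above every WT library, and the nearest was KI male replicate 3. The mean was 3.07 ± 0.543 CPM in WT and 10.9 ± 2.85 CPM in KI (SD, n = 8 each), a 3.54-fold difference and a log2 fold change of 1.82 (SE 0.165) in the fit described below. The log2 fold change was 1.90 (SE 0.239) in females and 1.75 (SE 0.236) in males. The difference between the sexes, which the choice of members did not use, was 0.16 (SE 0.336, FDR 0.990). The gene lies at chr6:118403321-118432491. With neuron markers as a further term the log2 fold change of Zfp248 was 1.5. KI male replicate 3, the KI library with the lowest Zfp248, had also the lowest neuron marker sum of the KI libraries, 831 CPM. WT male replicates 1, 3 and 4 had neuron sums of 1081, 1035 and 1009 CPM, with Zfp248 at 3.25, 3.81 and 3.56 CPM. KI female replicates 1 and 2, with sums of 1054 and 1086 CPM, had Zfp248 at 8.03 and 9.78 CPM. The part of neuron RNA in the Zfp248 difference was not tested.

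**Figure D1:**
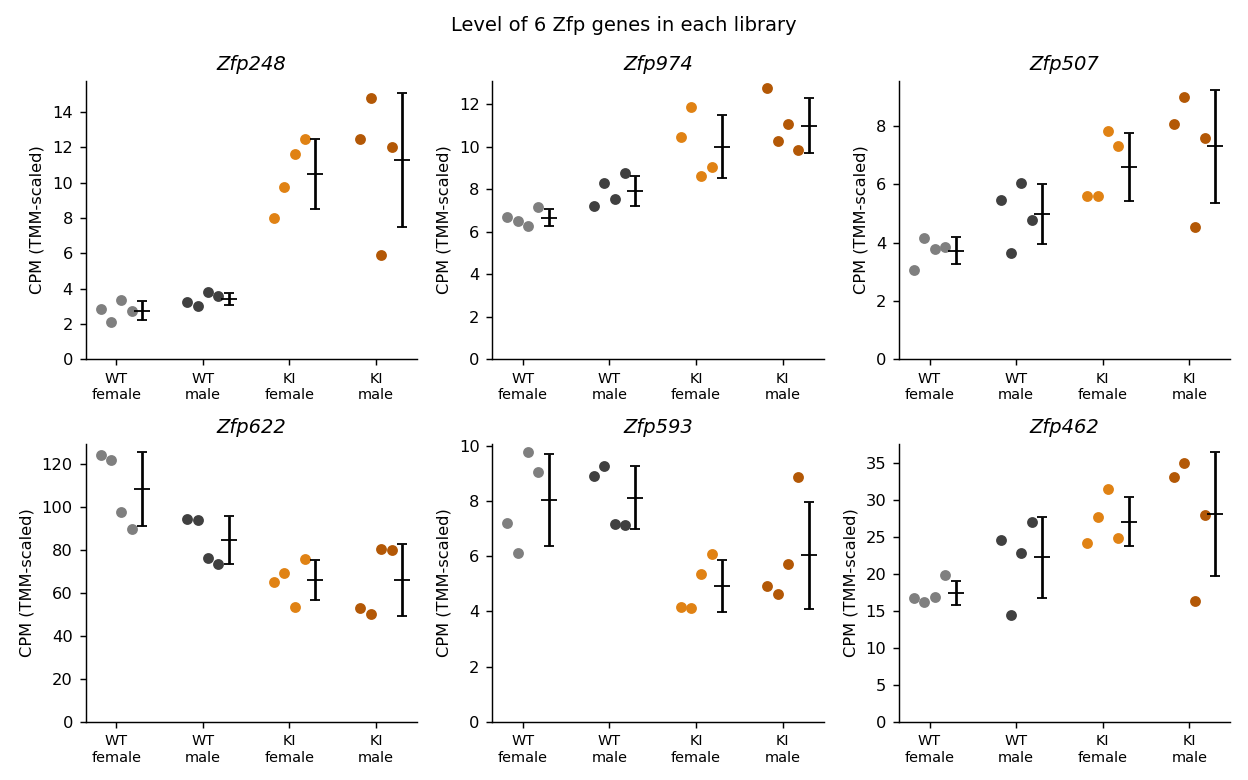
CPM of 6 Zfp genes (panels, y axis from 0) in each of the 16 libraries, by genotype and sex (x axis), with 1 point per library and the mean ± SD of each group beside it (n = 4). Zfp248 is the gene whose KI libraries, from 5.88 CPM, all sit above the WT libraries, at most 3.81 CPM, and in the other 5 genes the genotypes overlap in at least 1 library.

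Genotype was tested in 18227 genes with edgeR's quasi-likelihood test with sex as a term. A gene was called where its false discovery rate (FDR) was below 0.1 and its log2 fold change (KI minus WT) exceeded 0.5 in size. The study sequenced these cells to ask whether microglia take part in an early loss of noradrenergic axons in the bulb. Of the 289 members, 4 were called, 2 higher (Zfp974 and Zfp507) and 2 lower (Zfp622 and Zfp593) in KI. That is 1.38% of the members, against 5.43% of the 12557 genes with at least 15 counts in every library (2.41% higher and 3.03% lower) and 8.64% of all tested genes. At the FDR alone, with no fold limit, 17 members were higher and 11 lower (9.69% in all), against 6.16% and 8.14% of the 12557 genes (14.3% in all). None of the 289 had WT and KI ranges that did not overlap, against 0.0956% of the 12557 genes higher and 1.07% lower in KI. The 28 members at the FDR alone became 16 without KI male replicate 1 or KI male replicate 2 and 49 without KI male replicate 3. With the neuron marker level as a further term, 1 member was called, Zfp974, against 1.28% of the 12557 genes.

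Zfp974 (chr7:27581826-27628971), a KRAB gene with 21 fingers, was at 6.69, 6.47, 6.28 and 7.18 CPM in WT females, 7.195, 8.27, 7.51 and 8.74 in WT males, 10.4, 11.9, 8.61 and 9.06 in KI females, and 12.8, 10.3, 11.1 and 9.84 in KI males. The genotypes overlapped between WT males and KI females. Within each sex they did not, and the share of all genes without overlap within a sex was not counted. The mean rose from 7.29 ± 0.858 to 10.5 ± 1.39 CPM (SD, n = 8 each), or by 0.53 on the log2 scale (SE 0.0867, FDR 0.00104, exact permutation of genotype within sex, two-sided p = 0.000408, the smallest these splits can give). The permutation, here and for the other called members below, was run only on members that edgeR had already called, in the same libraries. Small p-values follow in part from that choice. They are not adjusted and are not a separate test of the genotype difference. For Zfp974 all 8 KI libraries were above the WT median. Without KI female replicate 2 the log2 fold change was 0.49, below the fold limit, with an FDR of 0.00251. A processed pseudogene, Prkcz2, on the same strand, and a lncRNA, Gm26891, on the opposite strand, overlap exons of Zfp974. Both had at most 6 counts in any library. How reads in the overlaps were assigned is not given, so these low counts do not show whether the overlaps changed the Zfp974 counts.

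Zfp507 (chr7:35471768-35502436) has 9 fingers and no KRAB box. It was at 3.06, 4.16, 3.78 and 3.84 CPM in WT females, 5.48, 3.66, 6.05 and 4.77 in WT males, 5.62, 5.597, 7.84 and 7.33 in KI females, and 8.08, 9.02, 4.53 and 7.59 in KI males. KI male replicate 3 and KI female replicates 1 and 2 lay within the WT range, and the other 5 KI libraries were above it. The mean was 4.35 ± 1.01 CPM in WT and 6.95 ± 1.53 CPM in KI (SD, n = 8 each), higher by 0.70 on the log2 scale (SE 0.148, FDR 0.00608, exact permutation p = 0.00163). The lowest KI library was again the one with the lowest neuron sum, and with the neuron term the log2 fold change was 0.39 (FDR 0.289). The part of neuron RNA was not tested here either. The lncRNAs E130304I02Rik, with at most 3 counts in any library, and Gm73276, not analysed here, overlap exons of Zfp507 on the opposite strand, so their reads and those of Zfp507 cannot be told apart.

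Zfp622 (chr15:25984452-25998568) and Zfp593 (chr4:133970600-133972910) are known for the export and maturation of the large ribosomal subunit, and both were lower in KI. Zfp622 was at 124, 122, 97.5 and 89.8 CPM in WT females, 94.2, 93.9, 76.4 and 73.3 in WT males, 64.9, 69.3, 53.7 and 76.0 in KI females, and 52.7, 49.97, 80.6 and 80.0 in KI males. WT female replicates 1 and 2 were highest, and KI male replicates 3 and 4 and KI female replicate 4 lay within the WT range. The mean fell from 96.4 ± 18.5 to 65.9 ± 12.6 CPM (SD, n = 8 each), a difference of -0.54 on the log2 scale (SE 0.116, FDR 0.00693, exact permutation p = 0.00245). Leaving out KI female replicate 3, KI male replicate 2, WT female replicate 1 or WT female replicate 2 gave log2 fold changes of -0.49, which do not reach the fold limit. With the neuron term it was -0.25 (FDR 0.245). Zfp593 was at 7.19, 6.13, 9.78 and 9.06 CPM in WT females, 8.91, 9.28, 7.17 and 7.11 in WT males, 4.15, 4.10, 5.34 and 6.06 in KI females, and 4.93, 4.63, 5.71 and 8.85 in KI males. KI male replicate 4 lay within the WT range and the other 7 KI libraries were below it. The mean was 8.08 ± 1.33 CPM in WT and 5.47 ± 1.53 in KI (SD, n = 8 each), a difference of -0.57 on the log2 scale (SE 0.147, FDR 0.0201, exact permutation p = 0.00367). With the neuron term it was -0.55 (FDR 0.213). A gene on the opposite strand, Zfp593os, overlaps exons of Zfp593, and without a stated strand its reads and those of Zfp593 cannot be told apart.

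Other members passed the FDR without reaching the fold limit, and by p Zfp267 and Zfp263 stood ahead of Zfp593. Zfp267, a KRAB gene, was at 11.9 ± 1.43 CPM in WT and 15.1 ± 1.17 CPM in KI (log2 fold change 0.34, FDR 0.00996). Zfp263, on chromosome 16, was at 40.7 ± 2.59 and 35.6 ± 1.93 CPM (-0.19, FDR 0.0157). Zfp462, a large chromatin factor with 33 fingers, was at 19.8 ± 4.54 and 27.6 ± 5.94 CPM (0.49, FDR 0.0360), with KI male replicate 3 at 16.3 CPM and the other 7 KI libraries at 24.2 to 35.0 CPM, against 14.4 to 27.02 CPM in WT. Of the 289 members, 257 had an absolute log2 fold change below 0.25, and 4 were above 0.5, those called.

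**Figure D2:**
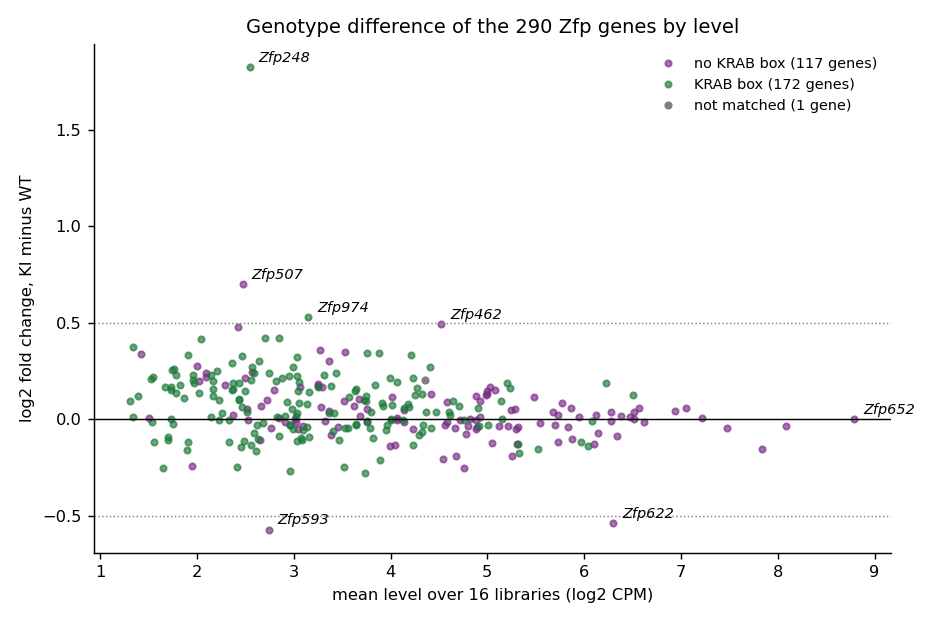
Log2 fold change (KI minus WT, y axis) of the 290 members against their mean level (log2 CPM, x axis), 1 point per gene, coloured by KRAB box, with dotted lines at the fold limit of 0.5. Zfp248, at 1.82, lies far above the others, and Zfp507, Zfp974, Zfp593 and Zfp622 are the other members beyond the lines.

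Genes with known roles were grouped in 3 lists. In the list of KRAB genes for silencing of retroviruses, repeats or imprints, 8 of 10 listed genes were members, 3 with a fold change above 0 and 5 below. At the FDR alone 1, Zfp110, was lower (48.5 ± 3.56 CPM in WT, 43.6 ± 2.50 in KI, log2 fold change -0.15, FDR 0.0588), 12.5% of the list beside 14.3% of the 12557 genes. Zfp110 encodes a protein that binds the p75 neurotrophin receptor. This role is not silencing, so the value of Zfp110 is not a result about silencing genes. Zfp809, which silences murine leukaemia virus, was at 19.7 ± 1.60 CPM in WT and 17.9 ± 2.46 in KI. Zfp445, which keeps imprints, was at 70.5 ± 10.8 and 80.1 ± 7.15 CPM, and Zfp568, a repressor of Igf2, at 12.4 ± 1.85 and 10.4 ± 1.51 CPM. Zfp932, a silencer of endogenous retroviruses, was at 5.66 ± 0.989 and 5.10 ± 0.629 CPM, and its counts are uncertain because it shares 54.5% of its 75-base stretches with other genes. These 4 did not pass the FDR, and Zfp57, a keeper of imprints, did not reach the count limit.

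Of 21 listed transcription factors and cofactors, 19 were members, 9 above and 10 below 0. At the FDR alone Zfp462 was higher, and Zfp592 and Zfp384 were lower, 15.8% of the list beside 14.3% of the 12557 genes. Zfp592, a partner of Zfp687 in a ZMYND8 complex, was at 71.8 ± 3.15 CPM in WT and 65.6 ± 3.39 CPM in KI (log2 fold change -0.13, FDR 0.0361). Zfp384, a transcription factor, was at 55.3 ± 3.90 and 51.0 ± 2.55 CPM (-0.12, FDR 0.0774). Zfp687 was at 24.0 ± 1.97 and 23.8 ± 1.39 CPM. Zfp638, which silences unintegrated retroviral DNA with the HUSH complex, was at 180 ± 7.23 and 175 ± 12.7 CPM, and Zfp644, a partner of the methyltransferase G9a, at 88.6 ± 9.80 and 89.3 ± 4.60 CPM. Of 10 listed genes for RNA, ribosomes, ubiquitin or mitosis, all 10 were members, 4 above and 6 below 0. Called were 2 of 10, Zfp622 and Zfp593, beside 5.43% of the 12557 genes. The lists of roles were chosen with earlier results of these data known, so these shares are a description and not a test. Zfp598, a ubiquitin ligase for collided ribosomes, was at 39.8 ± 2.61 and 38.4 ± 1.89 CPM, and Zfp207, which acts at kinetochores, at 90.7 ± 6.95 and 93.2 ± 12.4 CPM.

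The median fold change of the 289 members was 0.036, with 59.5% above 0, while the median of the 12557 genes with the same count limit was -0.011, with 45.8% above 0, and that of all tested genes was -0.001. Members with a KRAB box had a median of 0.070, with 108 of 171 above 0, and members without had 0.008, with 63 of 117 above 0. At the FDR alone 12 KRAB members were higher (7.02%) and 3 lower (1.75%), and 4 members without a KRAB box were higher (3.42%) and 8 lower (6.84%), beside 6.16% higher and 8.14% lower of the 12557 genes. The medians also moved with level. In the lowest level class the median was 0.13 for 74 KRAB members, 0.10 for 23 members without, and 0.03 for the 2849 genes at that level. In the middle class the medians were 0.05, 0.03 and 0.01, and in the highest class 0.02, 0.00 and -0.02. The mean log2 CPM of the KRAB members ran from 3.09 to 3.27 in WT and from 3.13 to 3.30 in KI libraries, so the genotypes overlap, and KI male replicate 4 at 3.13 was lowest of the KI libraries. By chromosome, medians were 0.016 on chromosome 7 (71 members), 0.069 on chromosome 13 (25) and 0.028 on chromosome 17 (34). On chromosome 16, which carries App, the median of 5 members was 0.056, with 3 above 0.

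**Figure D3:**
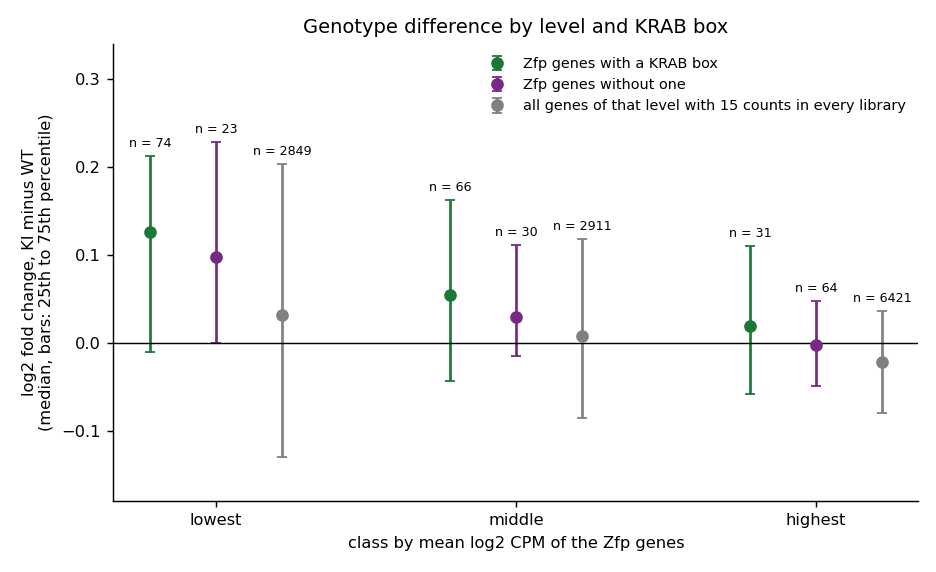
Median log2 fold change (KI minus WT, y axis) with bars from the 25th to the 75th percentile, in 3 classes of mean log2 CPM (x axis), for members with a KRAB box, members without one, and all genes of that level with 15 counts in every library. The KRAB medians of 0.13, 0.05 and 0.02 fall with level as those of all genes do, from 0.03 to 0.01 to -0.02, and the bars overlap in every class.

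Females and males were compared in a fit of the 4 groups. In females 8 of 289 members were called, 6 higher and 2 lower in KI, which is 2.77% against 5.84% of the 12557 genes (2.01% higher, 3.83% lower). They were Zfp974, Zfp507, Zfp622 and Zfp593 again, and Zfp759, Zfp287, Zfp174 and Zfp462. Zfp759, a KRAB gene with 19 fingers on chromosome 13, was at 4.51 to 5.25 CPM in the 4 WT female libraries and 6.81 to 9.10 CPM in the 4 KI female libraries (log2 fold change 0.70, SE 0.166, FDR 0.0178). In males it was at 4.45, 7.03, 6.95 and 7.31 CPM in WT and 7.91, 8.27, 5.71 and 6.61 CPM in KI, a log2 fold change of 0.15 (SE 0.164, FDR 0.772). Zfp174, on chromosome 16, was at 3.16 ± 0.685 and 4.59 ± 0.434 CPM in females (log2 fold change 0.52, FDR 0.0716) with a fold change of 0.03 in males. Zfp287 was at 5.45 ± 0.999 and 7.72 ± 0.779 CPM in females (0.52, FDR 0.0599) and 0.32 in males. Leaving out WT female replicate 1 left 3 members called, leaving out WT female replicate 3 left 5, and leaving out WT female replicate 4 gave 16. With the neuron term none of the 8 passed, with FDRs from 0.1002 (Zfp974, log2 fold change 0.66) to 0.891 (Zfp462, 0.16).

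In males 0 of 289 members were called by edgeR, against 0.223% of the 12557 genes. At an unadjusted p under 0.05 there were 18 members, or 6.23%, against 10.7% of those genes. Without KI male replicate 3, which had the lowest neuron sum of the KI libraries, 3 members were called in males, and the cause was not tested. Largest in males among the 4 called over both sexes was Zfp507 (0.57, SE 0.207, FDR 0.292). The interaction of genotype and sex called 0 of 289, against 0.0239% of the 12557 genes. At an unadjusted p under 0.05 there were 8 members, or 2.77%, against 5.28% of those genes. For Zfp759 the difference was 0.55 (SE 0.233, FDR 0.763), and for Zfp174 0.49 (SE 0.232, FDR 0.8292), so neither passed. The median fold change was 0.076 in females and 0.021 in males for the 289 members, and 0.153 and 0.025 for the KRAB members, with 123 and 95 of 171 above 0. The 12557 genes had -0.012 and -0.009, with 46.5% and 47.1% above 0. In females the medians also moved with level. They were 0.19, 0.12 and 0.07 for KRAB members in the lowest, middle and highest level classes. All genes at those levels had 0.04, 0.02 and -0.03. Sex itself, females minus males with genotype as a term, called 0 of 289, against 0.0239% of the 12557 genes, with a median of 0.0006. At an unadjusted p under 0.05 there were 20 members, or 6.92%, against 6.73% of those genes. DESeq2 and limma voom also called 0 members in males, by interaction and by sex.

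**Figure D4:**
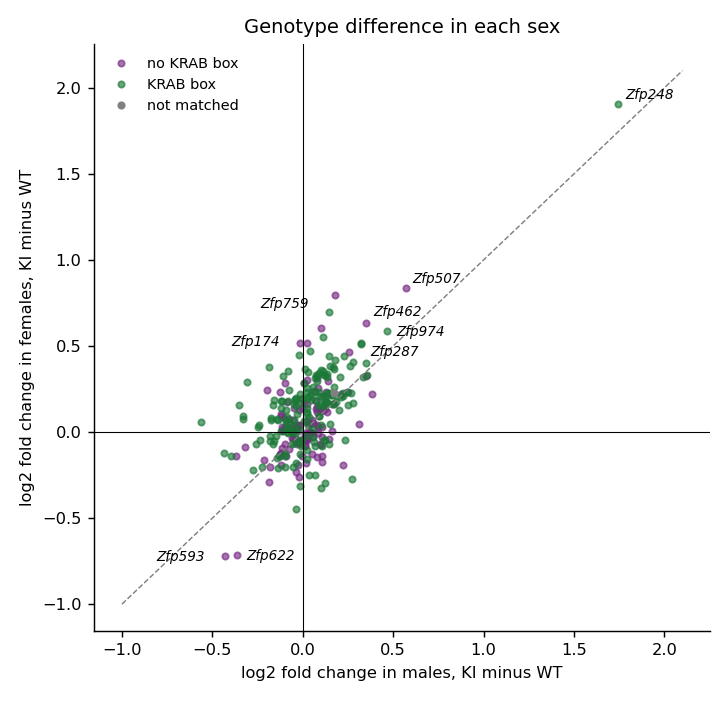
Log2 fold change in females (y axis) against that in males (x axis), KI minus WT, 1 point per member, coloured by KRAB box, with a dashed line of equal values. Zfp248 lies at 1.90 and 1.75, and Zfp507, Zfp622 and Zfp593 have the same sign in both sexes with the larger size in females, and the interaction test called none of them.

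Zfp genes outside the limit on counts were tested too, 38 of them. Of these 5 were called, all higher in KI: Zfp948 at 1.75 CPM in WT and 2.7 in KI (log2 fold change 0.62, SE 0.137, FDR 0.00764), Zfp941 at 1.04 and 1.92 (0.91, SE 0.211, FDR 0.0110), Zfp300 at 0.423 and 0.846 (0.99, SE 0.274, FDR 0.0288), Zfp853 at 0.811 and 1.38 (0.79, SE 0.234, FDR 0.0406) and Zfp977 at 0.508 and 0.927 (0.83, SE 0.270, FDR 0.0608). This is 13.2%, against 15.7% of the 5670 tested genes with under 15 counts in some library, and 8.61% of those were called higher. The 38 genes had a median fold change of 0.17. The filter for testing asked for 5 counts in 8 or more libraries, and each genotype had 8 libraries. A low gene could thus enter through the genotype where it was higher, so the direction of these calls is a description only. In WT, Zfp300 at 0.423 and Zfp977 at 0.508 CPM lay near the level of 3 counts, 0.169 to 0.347 CPM. 

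Genes that act with KRAB boxes were read from a list of the TRIM28 pathway. Of 33 genes tested 0 were called over both sexes by edgeR, against 8.64% of all tested genes and 5.43% of the 12557 genes. The list is highly expressed, with a median log2 CPM of 6.14 against 3.15 for all tested genes. Of the 6421 genes at the level of the highest class of members, 68 were called higher and 108 lower, so 0 of 33 says little about the list. At an unadjusted p under 0.05 there were 7, or 21.2%, against 24.1% of all tested genes and 23.2% of the 12557 genes, and the median fold change was -0.025. At the FDR alone 3 of 33 passed, against 14.8% of all tested genes and 14.3% of the 12557 genes. Among them, Chd4 of the NuRD complex was lower (538 ± 35.3 and 493 ± 16.2 CPM in WT and KI, log2 fold change -0.13, FDR 0.0433), and Atrx, a chromatin remodeller, was higher (369 ± 6.30 and 397 ± 24.2 CPM, 0.11, FDR 0.0982). Trim28 itself was at 107 ± 5.13 CPM in WT and 106 ± 7.02 CPM in KI, a log2 fold change of -0.01 (SE 0.0444), and Setdb1 at 72.4 ± 4.44 and 68.9 ± 3.34 CPM.

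The genes within 500 kb of Zfp248 are given as a description. Its neighbour Zfp9, a further KRAB gene, was at 1.31 ± 0.345 CPM in WT and 1.51 ± 0.554 in KI (log2 fold change 0.23, FDR 0.605). Bms1 was at 89.4 ± 4.99 and 88.7 ± 4.59 CPM, and Ankrd26 at 32.5 ± 2.62 and 32.3 ± 3.08 CPM, with log2 fold changes of -0.01 each. Hnrnpf, Csgalnact2 and Ret had -0.11, -0.08 and -0.10. Rasgef1a, whose start lies 445 kb away, was called higher, at 9.98 ± 2.90 and 15.3 ± 2.68 CPM (0.63, SE 0.155, FDR 0.0163). The Cacna1c gene, whose body reaches into the window, was at 102 ± 32.0 and 139 ± 29.7 CPM (0.46, FDR 0.103). A processed pseudogene inside Cacna1c, Gm18981, was called higher too, at 1.51 ± 0.733 and 3.01 ± 1.07 CPM (1.002, FDR 0.0391). Of all tested genes, 8.64% were called. The genes nearest to Zfp248 on both sides had fold changes from -0.01 to 0.23, and their KI and WT ranges overlapped.

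**Figure D5:**
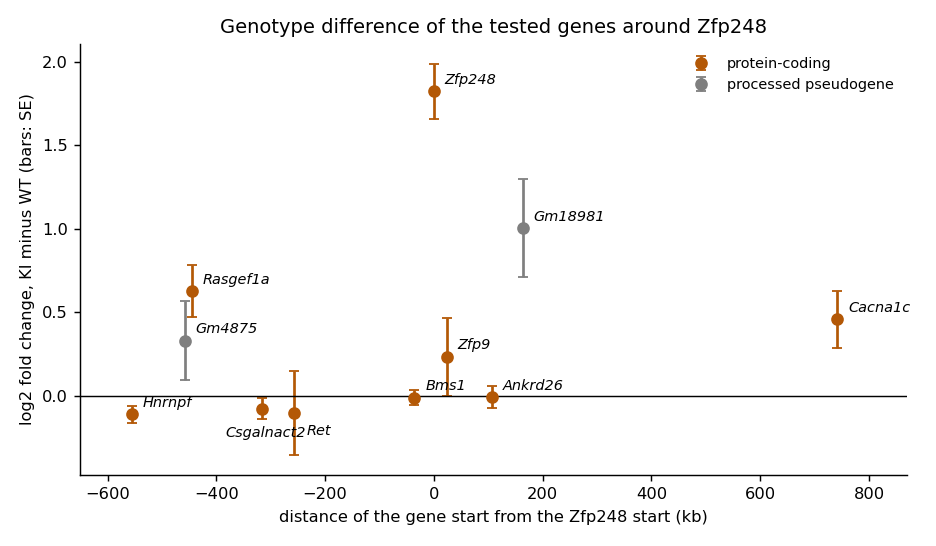
Log2 fold change (KI minus WT, y axis, bars: SE) of the tested genes around Zfp248 against the distance of each gene's start from that of Zfp248 (kb, x axis), 1 point per gene, coloured by gene type. Zfp248 at 1.82 stands above Bms1 at -0.01, Zfp9 at 0.23 and Ankrd26 at -0.01, and Rasgef1a lies at 0.63.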

How the data were processed

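RNA of CD11b bead-isolated olfactory bulb microglia was sequenced in 16 libraries, 4 for each sex of each genotype. Per the labels and methods, the authors made libraries with a stranded SMART-Seq kit from total RNA, used STAR for paired-end reads on GRCm39 (annotation gencode vM32, plus human App), and deposited raw counts per gene without normalization. The strand setting of the counting is not given in the sources used here. Whole-number counts were used as deposited. The members, the lists of roles, of TRIM28 pathway genes and of cell type markers, and the tests were chosen with earlier results of these data known.

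Software was edgeR 4.0.16, limma 3.58.1 and DESeq2 1.42.0 in R 4.3.3, and pyhmmer 0.12.3 in Python 3.11.15. The 18227 genes that reached 5 counts in 8 or more libraries were scaled by TMM and tested with edgeR (glmQLFit, trended dispersion, glmQLFTest), p-values adjusted over all of them by Benjamini-Hochberg. Genotype was tested with sex as a term, sex with genotype as a term, and the sexes and their interaction in a model with 4 group means. The SE of a log2 fold change is its size over the square root of F. Log2 CPM carry a prior count of 2. The scripts were tested on simulated data. Named members were Zfp248, members called in any comparison, the 6 of smallest genotype p, the 5 highest and 5 lowest by CPM, members of the roles list, genes near the count limit, genes within 500 kb of Zfp248 and called TRIM28 list genes. Named outside this rule, after their values were seen, were the other members of highest or lowest CPM per kb, of widest or narrowest spread or without the pattern, Zfp genes called below the count limit, TRIM28 list genes at the FDR alone, and Gm18981. The values of 1 TRIM28 list gene are not reported here.

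Positions and exons came from GENCODE vM39 (GRCm39), a later release than the authors' with the same assembly, and 1 member was not matched. Chromosomes of the matched members were checked against the RefSeq gene table, and 286 were the same, 1 differed (Zfp658) and 2 were not in that table. Fingers were counted on the translated canonical transcript with the pattern of 2 cysteines and 2 histidines (gaps of 2 to 4, 12 and 3 to 5 residues). KRAB boxes were called with a profile built from 46 seed sequences at an E-value below 0.001, and shared sequence as the percent of 75-base stretches that occur in another gene. Depth was 9052932 to 18117286 counts, which sets the precision of low genes, and limits from a count of 0 cover counting error only. Alternatives were other scalings, DESeq2, limma voom, other filters and thresholds, other terms, a replicate block, a neuron marker term, a robust dispersion, each sex alone, and leaving out each library.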

Additional observations from a re-analysis of the deposited data

Results flagged for a closer look

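The named members, the members' summed CPM and the library totals were checked in 216 groups of 4 libraries. In each group the gap between the extreme library and its nearest neighbour was divided by the range of the group. In 13 groups this share passed Dixon's critical value, where 10.8 would be passed by chance at 1 in 20. In WT males, replicate 1 was far below the others for Zfp759 (0.896) and for the summed CPM of the members (0.846), replicate 2 far below for Zfp13 (0.933), and replicate 2 far above for Zfp207 (0.915). In WT females, replicate 4 was far below for Zfp652 (0.856), replicate 2 far below for Zfp407 (0.832), and replicate 3 far above for Zfp932 (0.831). In KI females, replicate 1 was far below for Zfp287 (0.903). In KI males, replicate 3 was far above for Zfp689 (0.884), Zfp384 (0.848) and Zfp91 (0.925), replicate 4 far below for Zfp638 (0.957), and replicate 1 far below for Zfp131 (0.889). The low WT male library of Zfp759, at 4.45 CPM, is 1 of the 4 that enter its male fold change of 0.15.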

How the results depend on the processing

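Directions held for every result computed under the alternatives, and the counts of members called in males, by interaction and by sex were 0 under every setting that kept all libraries. Scaling by library totals alone gave 1 member called lower and a median fold change of 0.0885, where the median of all tested genes moved from -0.001 to 0.0495. At an FDR of 0.05, 15 members passed the FDR and 4 were called in females. With no fold limit 28 were called, 17 higher and 11 lower, and 19 in females. With the neuron marker term 1 member was called, 1 higher and 0 lower, 1 passed the FDR and 0 were called in females, while 253 of all tested genes were called against 1574. The cause was not tested. With the replicate block 4 members were called over both sexes and 7 in females, where Zfp462 was lost, and no other call changed. The replicate numbers were not read as pairs in the main fit. Same-number pairs had a median r of 0.093, from -0.44 to 0.38, and other pairs a median r of -0.041. Of 24 same-number pairs 11 correlated above 0.1, and 8 of 16 libraries correlated best with their own number. Whether libraries of the same number share a source of spread was not tested. Leaving out 1 library gave 3 to 6 members called, 1 (without KI female replicate 2) to 4 (without KI male replicate 3) higher, 1 (without WT female replicates 1 or 2, KI female replicate 3 or KI male replicate 2) to 2 lower, 16 to 49 at the FDR alone, 3 to 16 in females, 0 to 3 in males, and 0 by interaction or sex. The median fold change was then 0.0387 to 0.0564. Depth limits members near 15 counts in a library.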
